A study of Rattus norvegicus with 40 samples.

Results

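S100b, Scn7a, Pmp22, Mbp and Ngfr, 5 genes known for their expression in Schwann cells and myelin, were followed in rat carotid arteries after balloon injury. They were taken as every probe set whose platform annotation gave exactly 1 of these symbols. This gave 9 of 8740 probe sets, 2 each for S100b, Scn7a, Pmp22 and Ngfr and 1 for Mbp, and 8 of the 9 were bright enough to be tested. Balloon injury strips the inner lining of an artery with an inflated catheter and stretches its wall. All rats were male Wistar-Kyoto animals of 3 months. In the operated rats the left common carotid was injured, and its outer side was covered with plain pluronic gel or with gel holding recombinant tissue plasminogen activator (tPA, a protease that activates plasminogen) at 20 nmol/kg. The injured left artery and the uninjured right artery of these rats were collected on day 1 or day 4, giving 8 groups of 3 arrays named here left gel, right gel, left tPA and right tPA with their day. The left artery was also taken after a sham operation, with 4 arrays for day 1 and 6 for day 4, and from intact rats, with 6 arrays. Each of the 40 arrays held RNA pooled from 3 vessels, so the vessel, its adventitia and whatever tissue was dissected with it were measured together, and fewer cells of a type and less RNA per cell cannot be told apart.

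Schwann cells are the glia of peripheral nerves. Myelinating Schwann cells wrap large axons in a compacted membrane sheath, whereas Remak (non-myelinating) Schwann cells ensheath bundles of thin axons, including the sympathetic fibres that run in the adventitia of arteries. After nerve damage Schwann cells lower myelin genes and raise genes of an immature or repair state, among them Ngfr. S100b encodes a calcium-binding protein used as a general Schwann cell marker, and Scn7a encodes a sodium channel of the Nax type found in Schwann cells and other glia. Mbp encodes myelin basic protein, a compact myelin component, and Pmp22 a membrane protein of peripheral myelin that other cell types, fibroblasts included, also express. Ngfr encodes the p75 neurotrophin receptor.

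The RefSeq promoter table (build GRCr8) held an entry for 4 of the 5 genes. The 250 bases before the start of S100b and of Scn7a are given, since these genes had the most similar array-by-array profiles among the members. The S100b stretch is chr20:12381082-12381331 and the Scn7a stretch chr3:71846285-71846534, both on the minus strand and written 5′ to 3′ in the direction of the gene.
S100b: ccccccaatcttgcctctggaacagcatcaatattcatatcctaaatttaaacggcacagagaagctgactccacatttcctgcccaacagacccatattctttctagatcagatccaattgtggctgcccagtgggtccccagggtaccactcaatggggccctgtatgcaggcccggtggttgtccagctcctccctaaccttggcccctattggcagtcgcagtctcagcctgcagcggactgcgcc
Scn7a: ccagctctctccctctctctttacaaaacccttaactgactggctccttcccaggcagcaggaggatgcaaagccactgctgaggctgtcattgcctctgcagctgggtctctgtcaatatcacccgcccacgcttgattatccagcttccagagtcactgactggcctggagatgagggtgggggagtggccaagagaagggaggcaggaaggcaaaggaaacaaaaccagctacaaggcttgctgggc
Both strands of these stretches were searched for the SOX core motifs ACAAAG and ACAATG, named for the family of SOX10, a transcription factor of Schwann cells, and for the TATA box TATAAA. Neither stretch held any of these motifs, so no base is in capitals. Of all 33469 promoters in the table, read over the same length, 25.3% held a SOX core motif on either strand and 12.9% held TATAAA.

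Intensities are in the units of the deposited table, scaled so that every array has nearly the same trimmed mean, from 500.3 to 500.8. Values under 23.3 (the 20th percentile over all arrays, called the floor) were raised to it before log2 was taken. Of 5 smooth muscle markers that check the labelled tissue, Acta2, smooth muscle actin, lay between 4835.1 and 13013.7 over the 40 arrays, Myh11, smooth muscle myosin, between 907.5 and 9544.0 and Cnn1, calponin, between 1007.8 and 6718.4. Tagln, transgelin, fell as low as 127.5 (median 3586.6), and Des, desmin, was dim, with a lowest value of 30.1 and a median of 54.5. On 4 tPA arrays the mean level of 12 tested macrophage and leukocyte genes, as log2 relative to each gene's mean over all arrays, stood apart from the other arrays of their label. It was 1.39 on right tPA day 1 replicate 2 and 1.40 on right tPA day 4 replicate 1, against -0.65 to 0.44 on the other right tPA arrays. It was 0.06 on left tPA day 1 replicate 2 and -0.55 on left tPA day 4 replicate 1, against 0.89 to 1.31 on the other left tPA arrays. On each day the left and the right array that stood apart carry the same replicate number, and each lay nearer to the arrays of the other side. Whether sides were exchanged was not tested. The labels are used as given, so a side named for these 4 arrays is the side of the label. The first group mentioned in each difference below is the minuend, so that a positive value means higher in that group.

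Scn7a had the widest range of the members. Its probe set rc_AA925248_at ran from 2.9 on left tPA day 1 replicate 1 to 5787.4 on the array labelled left tPA day 1 replicate 2, 248 times the floor. It read 5292.2, 4692.0 and 5027.1 in the 3 right gel arrays of day 4. The sham arrays of day 4 read from 5.5 to 48.8 with a median of 20.8. The ranges of right gel and sham arteries on day 4 were thus far apart, and the right gel arrays were closely spaced. The difference was 7.51 on the log2 scale (SE 1.51, n = 3 and 6; limma adjusted p = 0.00129), or 183-fold between floored means. Of the 6 sham arrays 4 were under the floor, so that fold depends on it. In the injured left artery under gel Scn7a read 1376.7, 3169.4 and 413.8 on day 4. All 3 values lay above every sham array of that day and below every right gel array of that day. The left gel minus sham difference on day 4 was 5.48 (SE 1.51; limma adjusted p = 0.00916). Without left gel day 4 replicate 2, the highest of its group, it was 4.79 and the limma adjusted p rose to 0.0676.

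On day 1 Scn7a in left gel arteries read 4.1, 3.5 and 6.5, all under the floor. The sham arteries of day 1 split, with 31.3 and 47.2 on replicates 1 and 2 and 4851.6 and 4223.5 on replicates 3 and 4. The left gel minus sham difference on day 1, -4.16 (SE 1.63), did not pass (limma adjusted p = 0.185), although the groups did not overlap, as 22.4% of all tested probe sets did not. The change of the injury effect from day 1 to day 4 was tested directly and was 9.64 (SE 2.23; limma adjusted p = 0.0107), the lone member probe set called among 8, where 2.42% of all tested probe sets were called. That contrast rests in part on the sham arteries of day 1, in which the gene was high on 2 of 4 arrays. It also rests on the left gel arteries of day 1, whose replicates 1 and 3 were the most alike array pair within any group. From day 1 to day 4 the left gel arteries themselves differed by 5.71, or 52.3-fold between floored means, with no overlap but without passing (limma adjusted p = 0.0663).

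Under tPA, Scn7a in the left artery was under the floor on all 3 arrays of day 4, at 6.7, 9.7 and 14.8. All 3 left gel arrays of that day were higher, and 13.3% of all tested probe sets had groups that did not overlap in this comparison. The left tPA minus left gel difference on day 4 was -5.71 (SE 1.75), or 52.3-fold between floored means. It did not pass (limma adjusted p = 0.231), with 0.12% of all probe sets called. Without the 4 tPA arrays that stood apart it was again -5.71 (limma adjusted p = 0.224). Left tPA arrays of day 1 read 2.9, 5787.4 and 963.5, from under the floor to the highest value of all 40 arrays. Right tPA arrays read 3635.5, 61.2 and 1064.2 on day 1 and 487.9, 32.6 and 192.7 on day 4. Right gel arrays of day 1 read 82.0, 91.2 and 458.0. On replicate 3, the highest of these, 6.57% of all values were at or under the floor, against 15.64% to 25.16% on the other arrays. In the intact arteries the lowest value was 33.8, the median 385.4 and the highest 4799.2, on replicate 3. Intact arteries therefore varied widely, all above the floor, and sham arteries of day 4 were lower by 3.51 without passing (limma adjusted p = 0.283). The second Scn7a probe set, S75991_at, stayed between 81.3 and 372.0 and was called in none of the 14 comparisons by limma. Its smallest unadjusted p-values were in left gel minus right gel on day 1 (-1.09, adjusted p = 0.142) and right gel minus sham on day 1 (0.85, adjusted p = 0.317).

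**Figure D1:**
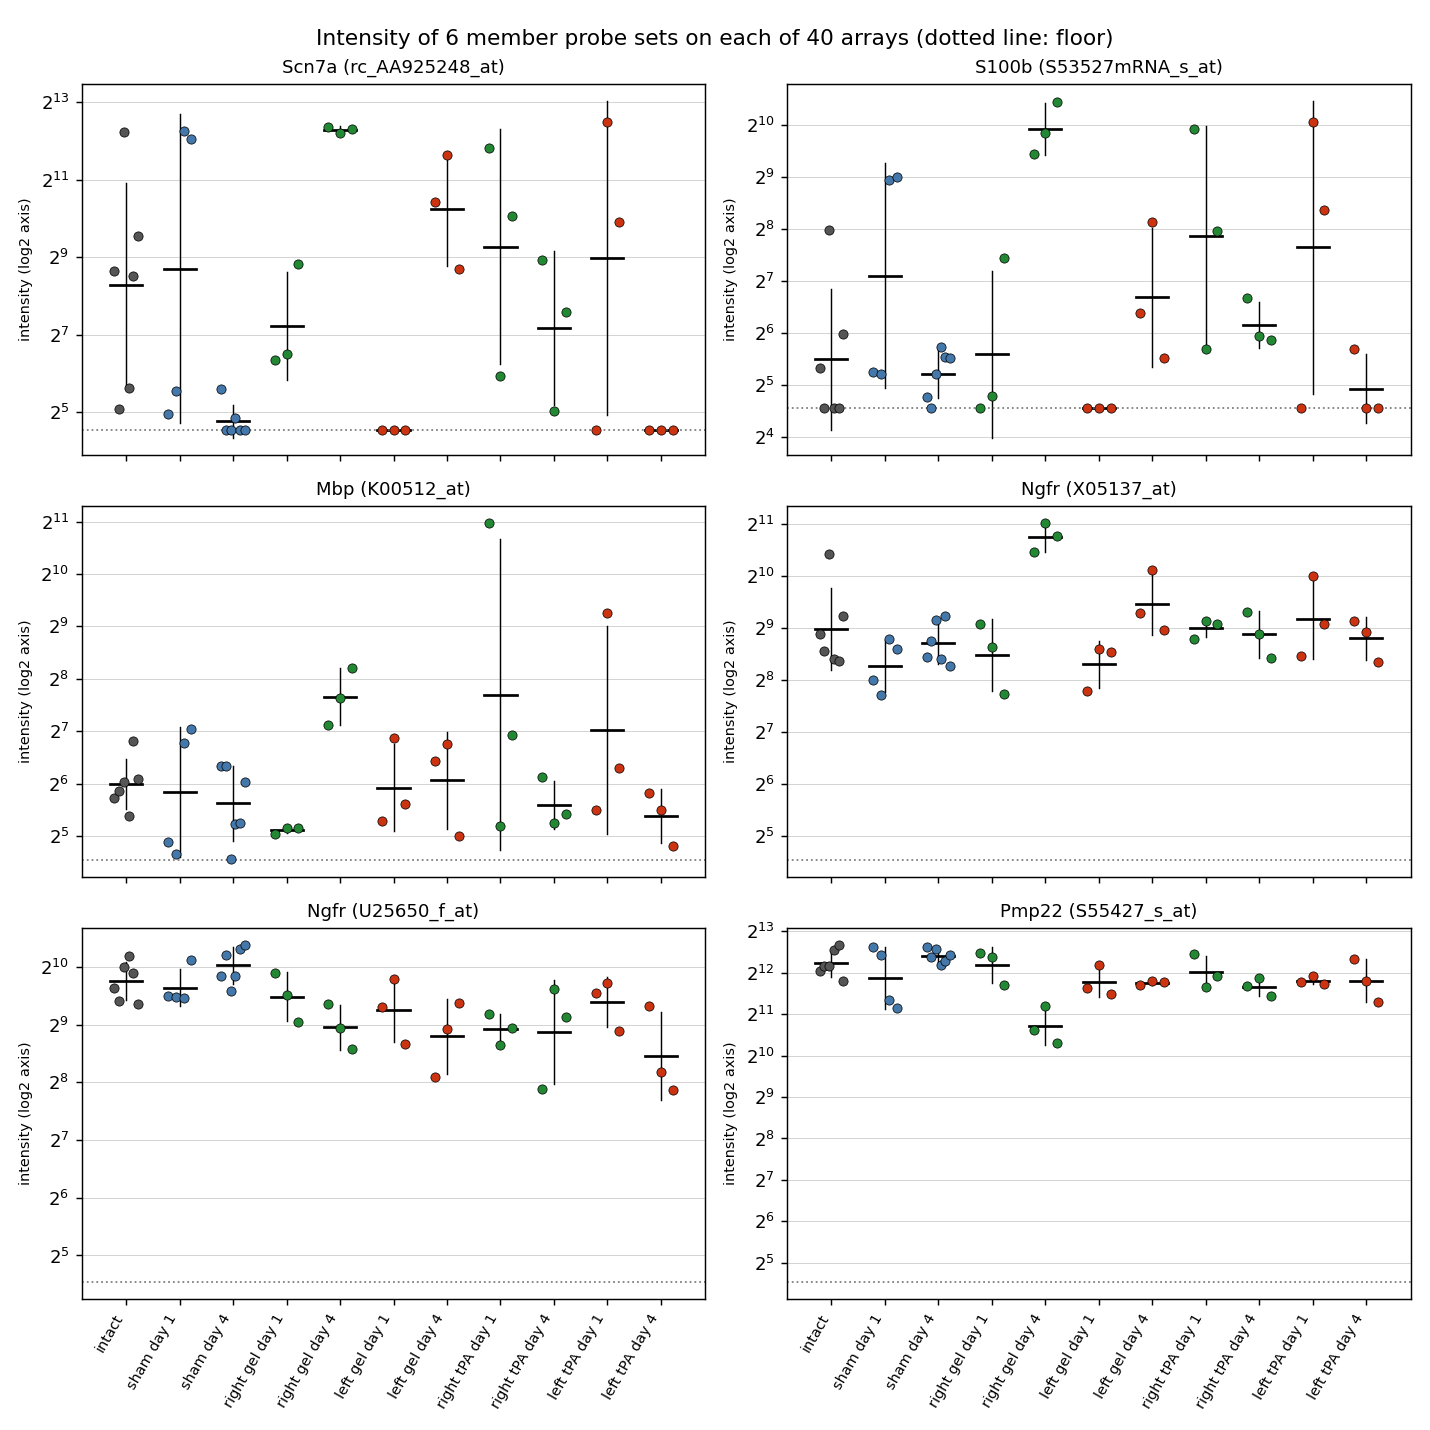
Intensity (log2 axis) of 6 member probe sets on each of 40 arrays, 1 point per array, by group on the horizontal axis. Horizontal bars are group means of floored log2 values, vertical lines 1 SD, and dotted lines the floor of 23.3. Right gel arteries of day 4 are highest for Scn7a by group mean and lowest for Pmp22 S55427_s_at.

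S100b followed the same arrays. Its probe set S53527mRNA_s_at read 695.5, 921.0 and 1389.5 in right gel arteries on day 4. The sham arteries of day 4 read from 14.7 to 52.8, with a median of 41.1. The groups did not overlap, and the difference was 4.70 (SE 0.96; limma adjusted p = 0.00141), or 25.9-fold with a 95% interval of 6.74 to 99.9. Left gel arteries of day 4 read 83.6, 280.6 and 45.6, with 1 of 3 inside the sham range, and the difference from sham of 1.46 did not pass (limma adjusted p = 0.322). They lay below right gel arteries without overlap, a left gel minus right gel difference of -3.23 (SE 1.10) that was short of the threshold (limma adjusted p = 0.0838).

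On day 1 S100b was under the floor on all 3 left gel arrays, at 21.5, 9.3 and 15.8. The sham arteries read 38.1 and 36.9 on replicates 1 and 2 and 487.4 and 512.1 on replicates 3 and 4, the same split as for Scn7a. Left tPA arteries read 7.0, 1054.4 and 326.7. The left tPA minus left gel difference on day 1 was 3.10 (SE 1.10) between floored means and did not pass (limma adjusted p = 0.215). Without left tPA day 1 replicate 1, in which both genes were under the floor, it was 4.65 for S100b (limma adjusted p = 0.0238) and 6.66 for Scn7a (limma adjusted p = 0.0403), so that array decides these calls. Without the 4 tPA arrays that stood apart, which include left tPA day 1 replicate 2, the differences were 1.90 for S100b (limma adjusted p = 0.447) and 2.68 for Scn7a (limma adjusted p = 0.512). Right tPA arteries read 962.7, 51.5 and 247.6 on day 1 and 101.2, 60.8 and 58.2 on day 4. Left tPA arteries of day 4 read 51.6, 22.0 and 15.2, and their difference from sham was -0.29 (95% interval -2.23 to 1.66). Right gel arteries of day 1 read 20.3, 27.4 and 173.4. Among intact arteries replicate 3 was again highest, at 252.8, with the lowest at 13.9 and the median at 30.9. The second S100b probe set, rc_AI146214_at, lay between 12.0 and 66.2 and was left out as too dim.

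Mbp was raised on fewer arrays. K00512_at read 139.4, 199.8 and 297.0 in right gel arteries on day 4. All 3 lay above the sham arteries of that day, which ran from 23.7 to 80.9 with a median of 51.8. The difference of 2.03 (SE 0.77; 4.10-fold, 95% interval 1.38 to 12.2) did not pass (limma adjusted p = 0.0981). It passed with array weights (limma adjusted p = 0.023), with only the groups compared (0.0117) and without the 4 tPA arrays that stood apart (0.0254). The highest Mbp values were elsewhere: 2026.0 on right tPA day 1 replicate 1 and 615.3 on the array labelled left tPA day 1 replicate 2. The other arrays of these groups read 36.5 and 121.2 in right tPA and 45.3 and 78.9 in left tPA arteries. Left gel arteries read 39.2, 116.5 and 49.0 on day 1 and 86.5, 107.4 and 32.0 on day 4. In sham arteries of day 1 replicates 3 and 4 stood at 109.4 and 130.9, against 29.7 and 25.3 on replicates 1 and 2. Right gel arteries of day 1 were close together at 33.0, 35.5 and 35.3. Right tPA arteries of day 4 (38.0 to 69.5) and left tPA arteries of day 4 (28.0 to 56.7) were low throughout, and intact arteries ran from 41.6 to 112.0, with replicate 5 highest. In the fit of all arrays Mbp was called in none of the 14 comparisons by limma, and 1 of the 14, right gel minus sham on day 4, had an unadjusted p below 0.05.

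The 2 Ngfr probe sets disagreed in direction. X05137_at read 1406.9, 2071.2 and 1755.0 in right gel arteries on day 4. Sham arteries of day 4 read from 310.0 to 604.2 with a median of 390.3. The right gel arteries were all higher, by 2.04 on the log2 scale (SE 0.38; 4.11-fold, 95% interval 2.39 to 7.05; limma adjusted p = 0.000572). Left gel arteries of day 4 read 626.1, 1107.9 and 501.2, between these groups with 1 of 3 inside the sham range. Their differences were 0.74 from sham (limma adjusted p = 0.19) and -1.29 from right gel (limma adjusted p = 0.0854). Left gel arteries of day 1 read 220.7, 388.3 and 371.4, all below those of day 4, a difference of 1.15 that did not pass (limma adjusted p = 0.149). In tPA-treated rats the gene lay between 324.7 and 1021.8, with the highest value on the array labelled left tPA day 1 replicate 2. Among intact arteries replicate 3 read 1378.0 and the others from 331.6 to 603.8. Sham arteries of day 1 read 254.7, 209.4, 440.6 and 388.3.

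The other Ngfr probe set, U25650_f_at, carries the suffix that Affymetrix gives to probe sets whose probes also match related sequences, so its signal may not come from Ngfr alone. It read 654.3, 492.8 and 381.7 in right gel arteries on day 4 and from 763.8 to 1340.2 in sham arteries of that day, with a median of 1053.4. It fell by 1.07 (SE 0.34; limma adjusted p = 0.0436), and by 1.23 in left gel (274.0, 484.2 and 666.8; limma adjusted p = 0.00934) and 1.57 in left tPA arteries (638.4, 289.1 and 234.8; limma adjusted p = 0.0121). None of these 3 groups overlapped sham. Each of these calls was lost when 1 array was left out. The right gel call was lost without any 1 of right gel day 4 replicates 2 and 3 and sham day 4 replicates 2, 5 and 6 (limma adjusted p from 0.0737 to 0.259). The left gel call was lost without left gel day 4 replicate 1 (-0.88, limma adjusted p = 0.134), and the left tPA call without left tPA day 4 replicate 2 (limma adjusted p = 0.0748) or replicate 3 (limma adjusted p = 0.191). Without the 4 tPA arrays that stood apart, left tPA minus sham was -2.0 (limma adjusted p = 7.41e-05).

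The bright Pmp22 probe set went the opposite way to S100b and Scn7a. S55427_s_at read 1563.6, 2332.6 and 1266.6 in right gel arteries on day 4, against 4658.6 to 6260.1 in sham arteries with a median of 5369.1. The lowest sham array was thus above the highest right gel array. S55427_s_at fell by 1.70 (SE 0.28; 3.26-fold, 95% interval 2.19 to 4.85; limma adjusted p = 0.000131). Left gel arteries of day 4 were tightly grouped at 3302.0, 3576.2 and 3487.2. They lay below every sham array (-0.65, limma adjusted p = 0.109) and above every right gel array (1.05, limma adjusted p = 0.0528) without passing in either comparison. The latter passed in 9 of 13 other settings (limma adjusted p from 0.0085 to 0.122 over the 13). Sham arteries of day 1 again split, in the opposite sense: 6327.3 and 5453.0 on replicates 1 and 2, and 2594.4 and 2260.4 on replicates 3 and 4. Left gel arteries of day 1 ran from 2874.0 to 4675.2, right gel arteries of day 1 from 3300.3 to 5723.6, intact arteries from 3544.6 to 6542.0 and tPA arteries of all 4 groups from 2505.9 to 5596.8. These groups overlapped each other. The second probe set, rc_AA924909_at, stayed between 69.3 and 367.7 and was called in no comparison by limma. It did not share the order of groups: right gel arteries of day 4 came first by group mean (7.45), next to sham arteries of day 4 (7.39) and overlapping them.

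In right gel minus sham on day 4, 5 of the 8 tested member probe sets were called, 3 higher and 2 lower, where 8.82% of all 5827 tested probe sets were called, 6.23% higher and 2.59% lower (limma). The member groups did not overlap for 6 of 8, against 16% of all. In left gel minus sham on day 4 the count was 2 of 8, 1 in each direction, beside a background of 19.2% (11.3% higher and 7.89% lower), and 3 of 8 did not overlap, against 23.7% of all. A count of 2 of 8 is near that background. In left tPA minus sham on day 4 it was 1 of 8 beside 5.87%, and 1 of 8 did not overlap beside 7.88%. No member passed in left gel minus sham on day 1 (background 3.12%; 2 with an unadjusted p below 0.05), left tPA minus sham on day 1 (4.43%; 1 unadjusted) or right gel minus sham on day 1 (0.927%; 1 unadjusted). The direct comparison of left gel with right gel likewise gave 0 calls on day 1 (0.549%; 1 unadjusted) and on day 4 (5.1%; 3 unadjusted), by limma. Both arteries come from operated rats, though the labels do not tie arrays to animals. With the replicate number as a block the day 4 count was 1, Pmp22 S55427_s_at (limma adjusted p = 0.0421). On day 4 its groups did not overlap for 5 of 8 member probe sets, against 30.4% of all, with S100b, Scn7a, Mbp and Ngfr X05137_at lower and Pmp22 higher in the injured artery. These comparisons share the sham or the right gel arrays, so their member counts are not independent of each other. The members were also chosen with earlier results of these data known, so the counts are a description of them.

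**Figure D2:**
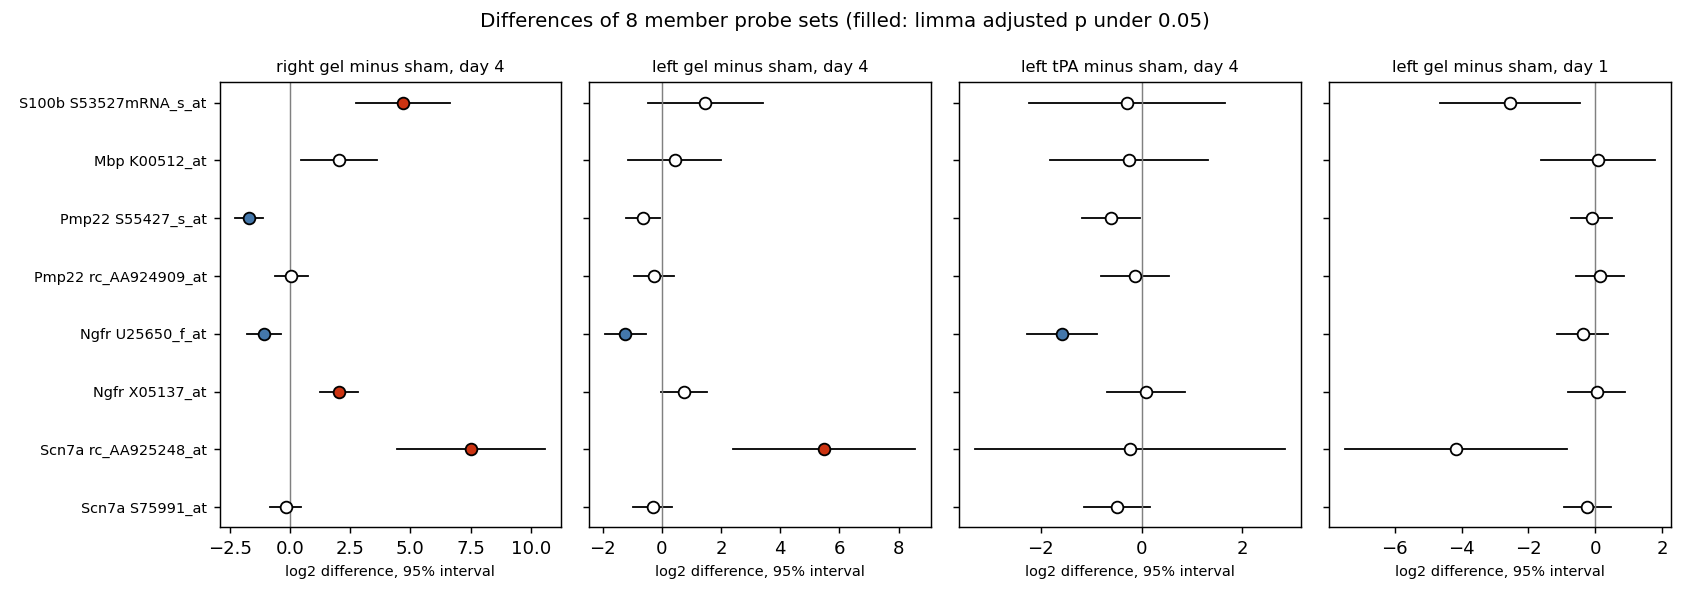
Log2 differences of the 8 tested member probe sets in 4 comparisons, with 95% intervals from limma as horizontal lines. Filled points passed at a limma adjusted p under 0.05, red for higher and blue for lower in the group mentioned first. The right gel panel holds 5 filled points of 8 and the left gel panel of day 1 none. Each panel has its own horizontal scale.

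Ordered by group mean, right gel arteries of day 4 came first for S100b, Scn7a and Ngfr X05137_at and last for Pmp22 S55427_s_at. For Scn7a and Ngfr X05137_at this top group was separate from the next, left gel on day 4, and for Pmp22 this bottom group was separate from right tPA on day 4. Every other neighbouring pair in the order overlapped in these 4 probe sets, S100b's top pair included. For Mbp right tPA arteries of day 1 came first by mean through 1 array, and no neighbouring groups were separate. The pooled SD within groups was 2.28 log2 units for Scn7a rc_AA925248_at, 1.43 for S100b S53527mRNA_s_at and 1.15 for Mbp. Over all tested probe sets its median was 0.50. For Pmp22 S55427_s_at the pooled SD was 0.39. The first 3 genes thus varied between pools of 1 group much more than most genes did.

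That variation was shared. Over the 40 arrays Scn7a and S100b correlated with r = 0.886 and rho = 0.814 (permutation p = 1e-05 for each, the smallest that 100000 permutations can give; adjusted over 10 pairs 3.33e-05 and 0.0001). For each pair r was also taken without the 2 arrays farthest from the median of a single gene. Among the pairs given here, that gene was S100b in those that hold it and Mbp in the others. For Scn7a and S100b this gave 0.872. After the group means were subtracted r was 0.908, so the pairing of high with high held among pools of the same group. S100b and Mbp gave r = 0.736 and rho = 0.541 (permutation p = 1e-05 and 0.00047; adjusted 3.33e-05 and 0.00117), and 0.663 without the 2 farthest arrays. Mbp and Scn7a gave r = 0.672 and rho = 0.593 (permutation p = 1e-05 and 9e-05; adjusted 3.33e-05 and 0.00045), and 0.682 without the 2 farthest arrays. Ngfr X05137_at and S100b gave r = 0.650 and rho = 0.580 (permutation p = 3e-05 and 0.00017, adjusted 6e-05 and 0.000567), and 0.561 without the 2 farthest arrays. The brighter Ngfr probe set, U25650_f_at, did not share this: its r was -0.152 with S100b, -0.163 with Scn7a and -0.034 with Mbp. Pmp22 correlated negatively with S100b, with r = -0.554 and rho = -0.424 (permutation p = 0.00023 and 0.00717; adjusted 0.000383 and 0.0102). That value moved to -0.495 without the 2 farthest arrays and to -0.306 within groups. For Pmp22 and Mbp r was -0.225 and rho -0.234 (permutation p = 0.162 and 0.145, unchanged by the adjustment) and -0.500 without the 2 farthest arrays, but 0.088 within groups, where the sign turned. The permutations shuffled all 40 arrays without regard to group, so these p-values do not separate differences between groups from variation within them. All values on 1 array share its hybridisation and its scaling. The members were chosen with these profiles known, and the correlations are a description of them.

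**Figure D3:**
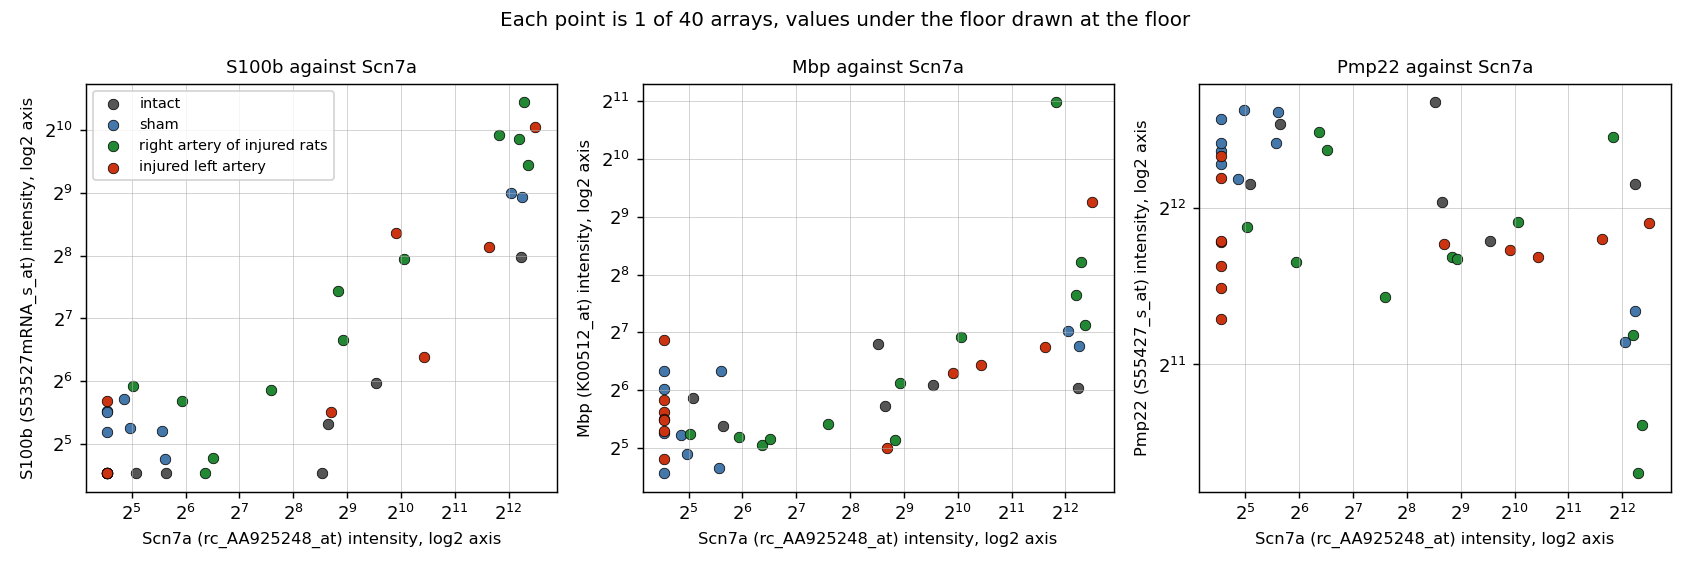
S100b, Mbp and Pmp22 (S55427_s_at) against Scn7a, as intensity on log2 axes, with 1 point per array (40 arrays) coloured by kind of artery and values under 23.3 drawn at the floor. S100b rises with Scn7a (r = 0.886), Mbp rises less evenly (r = 0.672), and Pmp22 falls (r = -0.501).

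Of the 10 arrays with most Scn7a, 9 were among the 10 with most S100b, and 7 of the 10 highest for S100b were among those for Mbp. Scn7a exceeded 4000 on 7 arrays: the 3 right gel arrays of day 4, sham day 1 replicates 3 and 4, intact replicate 3 and the array labelled left tPA day 1 replicate 2. The genes closest to Mbp by Pearson r over 40 arrays were Prx (0.83), which encodes periaxin of myelinating Schwann cells, and Ugt8 (0.82), an enzyme of galactolipid synthesis for myelin. The third was Sostdc1 (0.76), which encodes a secreted inhibitor of BMP and Wnt signals. Sostdc1 was also the gene closest to S100b (0.91) and to Scn7a (0.93). Next came Scg3, a granule protein of neuroendocrine cells (0.91), and then Scn7a for S100b, and Rtn1, a neuronal reticulon (0.89), and then S100b for Scn7a. Pmp22 was closest to B2m (0.79), Hspe1 (0.75) and Atp1b1 (0.75), none of them a myelin gene. Ngfr U25650_f_at, the brighter of its 2 probe sets, was closest to Hspe1 (0.83), Psma7 (0.82) and Rabac1 (0.81). For Ngfr X05137_at, examined after its values were seen, the nearest were L1cam (0.84), an adhesion protein of axons and Remak Schwann cells, Rab3b (0.84) and Th (0.83), the rate-limiting enzyme of noradrenaline synthesis.

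Of 29 further Schwann cell and myelin genes listed, 23 were on the array and 18 were tested. In right gel minus sham on day 4, 3 of the 18 rose, 0 fell and 15 did not pass (limma). Of all tested probe sets 6.23% were called higher there and 2.59% lower. The median difference of the list was 0.60 against -0.04 over all tested probe sets. The 3 that rose were Gap43 (3.65, SE 0.52, limma adjusted p = 2.41e-05), a growth-cone protein that neurons and Schwann cells express, L1cam (2.23, SE 0.42, adjusted p = 0.00064) and Ugt8 (2.86, SE 0.92, adjusted p = 0.0456). Cnp, a myelin enzyme (1.33, adjusted p = 0.0517), and Prx (1.55, adjusted p = 0.124) did not pass by limma. The summed intensity of the list was 7930.9 to 10189.9 in right gel and 3180.6 to 6696.6 in sham arteries of that day. In left gel minus sham on day 4, 2 of 18 rose, 1 fell and 15 did not pass, with a median of 0.21 against 0.02 over all (limma). With 11.3% of all tested probe sets called higher and 7.89% lower there, these counts are near the background. Egr2, a transcription factor of myelination that immune cells also express (3.38, adjusted p = 0.000213), and Gap43 (2.21, adjusted p = 0.00225) rose. Mobp, a myelin protein of oligodendrocytes (-1.44, adjusted p = 0.00348), fell. On day 1, 1 of 18 rose in left gel against sham (Nrcam, a neuronal adhesion protein, 1.74, limma adjusted p = 0.0405), and the median was -0.22. There 3.12% of all tested probe sets were called in either direction.

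Nerve fibre genes were higher in the same right gel arteries. Of 16 tested axon and sympathetic neuron genes, 11 rose in right gel minus sham on day 4, 0 fell and 5 did not pass. Their median difference was 2.81 (limma), and 6.23% of all tested probe sets were called higher there. The summed intensity of the 16 genes was 16755.4 to 30984.2 in right gel and 3103.9 to 4616.7 in sham arteries. Nefm, a neurofilament, rose by 6.07 (SE 0.93, limma adjusted p = 5.98e-05), and Uchl1, a neuronal deubiquitinase, by 3.90 (SE 0.49, limma adjusted p = 4.7e-06). Th read 1797.9, 3059.1 and 3810.7 on the right gel arrays of day 4 and from 239.9 to 420.9 on the sham arrays of that day. Dbh, which makes noradrenaline from dopamine and was picked after its values were seen, read 866.7, 1785.6 and 4403.9 against 5.9 to 46.3. In left gel minus sham on day 4, 2 of 16 rose (Nefm 2.64, limma adjusted p = 0.043; Uchl1 1.71, limma adjusted p = 0.0115), near the 11.3% of all tested probe sets called higher there. In left gel minus right gel on day 4, 5 of 16 fell and 0 rose by limma, where 5.1% of all tested probe sets were called. Fat genes moved too: 7 of 13 adipocyte genes rose in right gel minus sham on day 4 (limma), with a summed intensity of 11378.8 to 22821.9 against 5269.0 to 8120.2. Of 12 macrophage and leukocyte genes 2 rose and 0 fell (median 1.46), with a sum of 11619.5 to 16863.1 against 3079.1 to 6378.8. Of 12 contractile smooth muscle genes 1 fell and 0 rose (median -0.73), with a sum of 29280.8 to 34944.9 against 37816.2 to 64889.0. Of 16 skeletal muscle genes 1 rose and 0 fell, and the sum was 4359.3 to 29643.0 in right gel and 5047.4 to 7724.1 in sham arteries. These 4 counts stand beside 6.23% of all tested probe sets called higher and 2.59% lower, and the skeletal muscle count is near that background. The 3' to 5' ratio of the actin control probe sets, a sign of RNA quality, was 11.68 to 13.61 in right gel and 11.83 to 23.69 in sham arteries of day 4. In left gel arteries of day 4 it was 7.38 to 8.09, below every right gel and sham array of that day. The same ratio for GAPDH overlapped, at 1.81 to 6.64 in right gel, 1.41 to 6.22 in left gel and 3.27 to 9.53 in sham arteries. The part of any of these in the member differences was not tested.

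**Figure D4:**
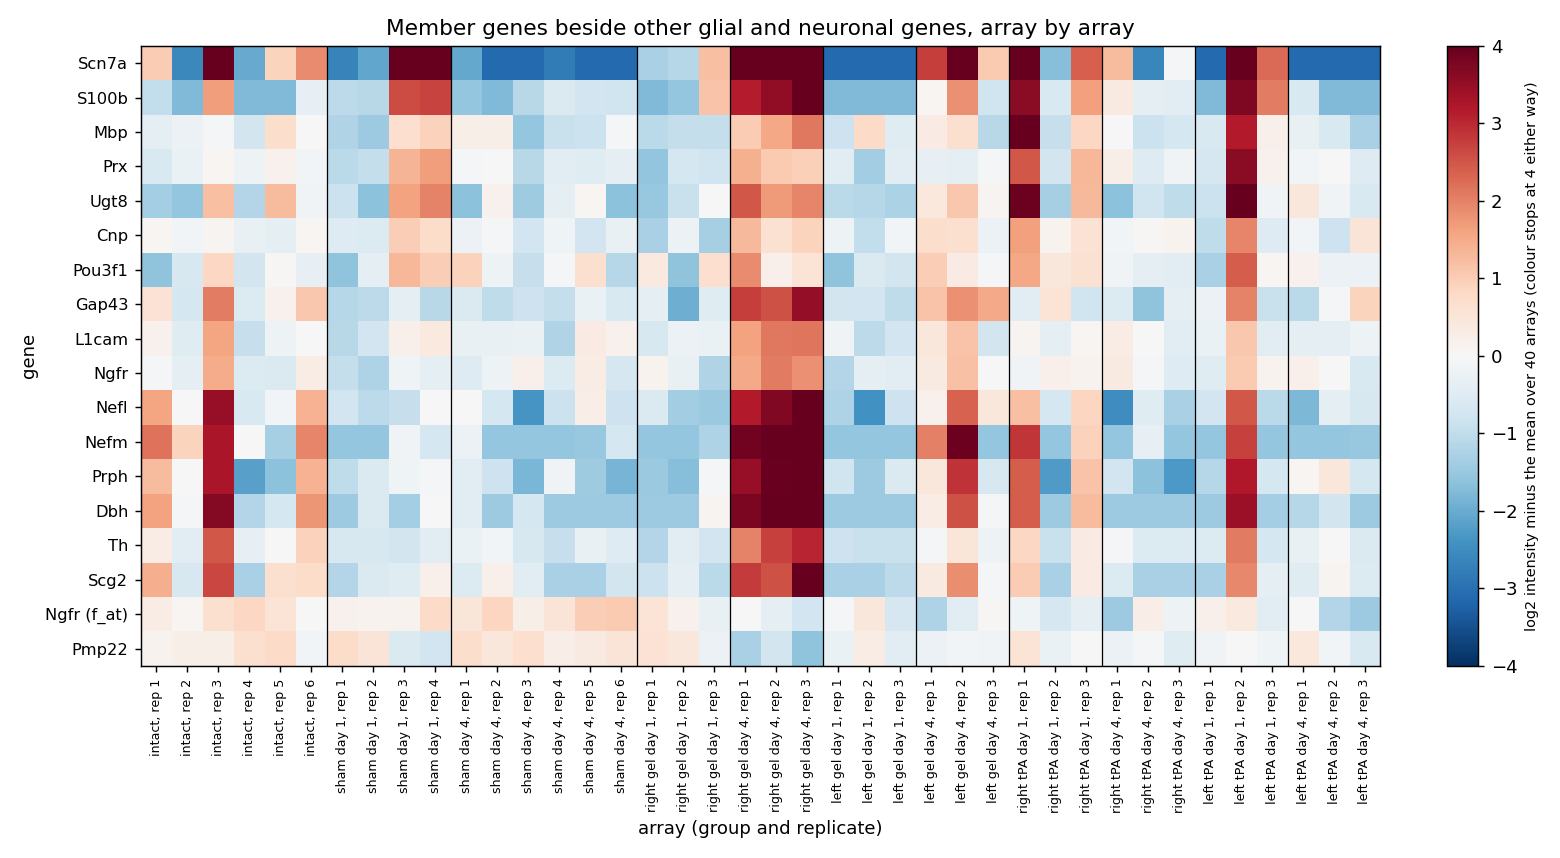
Log2 intensity of member genes and of other glial and neuronal genes (rows) on each of 40 arrays (columns, by group and replicate), minus the gene's mean over all arrays, from blue (lower) to red (higher), with colours stopping at 4 either way. The row named Ngfr is X05137_at and the row Ngfr (f_at) is U25650_f_at. Right gel arrays of day 4 are red for most glial and neuronal rows. Pmp22 has its lowest group mean there, and Ngfr (f_at) is lower there than in sham arteries of that day. Sham day 1 replicates 3 and 4 are red for Scn7a, S100b, Prx and Ugt8 but not for Th.

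The arrays with high members fell into different patterns once nerve genes were set beside them. These genes were picked for their array profiles, so the values are descriptive. On sham day 1 replicates 3 and 4, Prx read 1076.7 and 1332.1, against 197.7 and 215.6 on replicates 1 and 2. Ugt8 read 219.8 and 287.2 on replicates 3 and 4, against 39.5 and 20.9. Th on the same 4 arrays read 290.8, 294.7, 275.8 and 343.4, and Dbh 20.4, 42.5, 25.1 and 62.7. Prx and Ugt8, like Mbp, were therefore higher on 2 of the 4 sham arrays of day 1 at nearly the same level of Th, whereas Pmp22 S55427_s_at was lower on these 2 arrays. Replicates 1 and 2 of this group, and replicates 3 and 4, were also more alike over all tested probe sets than the other pairs of the group: the SD of their log2 differences was 0.489 and 0.532, against 0.732 to 0.787 across these pairs. Left gel day 1 replicates 1 and 3 were the most alike pair within any group, at 0.45. The other pairs of that group stood at 0.973 and 0.981. Whether the arrays of each alike pair came from separate pools was not tested. On the array labelled left tPA day 1 replicate 2 all kinds were high, with Prx at 5035.4, Ugt8 at 1616.9, Gap43 at 1240.7 and Th at 1914.5. On right tPA day 1 replicate 1 Prx read 2308.4, Ugt8 1086.4 and Th 818.1, but Gap43 236.6, inside the range of the sham arteries of day 4 (157.3 to 264.4). Intact replicate 3 had the reverse: Th stood at 2580.6, Dbh at 814.8 and Gap43 at 1289.2, while Prx, at 439.6, lay inside the range of the other intact arteries (269.9 to 471.7).

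The families of the members did not move as a block by the same test. Of 6 other S100 genes, S100a8, a neutrophil and monocyte calcium-binding protein, rose in left gel minus sham on day 1 (3.93, limma adjusted p = 0.0459), where 3.12% of all tested probe sets were called. On day 4 S100a10, a ligand of annexin A2, rose (0.78, limma adjusted p = 0.0477), S100a1, a muscle form, fell (-1.03, limma adjusted p = 0.0305), and the other 4 did not pass. Of all tested probe sets 11.3% were called higher and 7.89% lower in left gel minus sham on day 4. In right gel minus sham on day 4, where S100b rose, 0 of the 6 other S100 genes passed by limma (8.82% of all), and 0 had an unadjusted p below 0.05. Of 6 other voltage-gated sodium channel genes, Scn9a, a channel of peripheral neurons, rose in right gel minus sham on day 4 (1.63, limma adjusted p = 0.0497). Scn2a, a channel of central neurons, fell in left gel minus sham on day 4 (-1.0, limma adjusted p = 0.0469). Scn3a, another neuronal channel, was lower in left gel than in right gel arteries of day 4 (-1.05, limma adjusted p = 0.034). Each of these is 1 of 6 channel genes. The shares of all tested probe sets called in these 3 comparisons were, in the same order, 8.82%, 19.2% and 5.1%. Of 7 tested neurotrophins and receptors, Ntf3, the neurotrophin-3 gene, fell in left gel minus sham on day 4 (-1.99, SE 0.34, limma adjusted p = 0.000132) and in left tPA minus sham on day 1 (-1.60, limma adjusted p = 0.014). Bex3, a binding partner of the p75 receptor, fell in left tPA minus sham on day 1 (-1.21, limma adjusted p = 0.0233). The counts were thus 1 of 7 in left gel minus sham on day 4, beside 19.2% of all tested probe sets called. In left tPA minus sham on day 1 they were 2 of 7 beside 4.43%. In right gel minus sham on day 4, where Ngfr X05137_at rose, 0 of the 7 passed by limma (8.82% of all) and 2 had an unadjusted p below 0.05.

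The remaining comparisons gave no member calls by limma. Sham minus intact had 0 of 8 on day 1 (background 0.944%; 0 with an unadjusted p below 0.05) and 0 of 8 on day 4 (0.378%; 1 unadjusted, Scn7a). Left tPA minus left gel had 0 of 8 on day 1 (0.12%; 2 unadjusted, S100b and Scn7a) and 0 of 8 on day 4 (0.12%; 1 unadjusted, Scn7a). Left gel day 4 minus day 1 had 0 of 8 (3.21%; 2 unadjusted, Scn7a and Ngfr X05137_at), with no overlap for 4 of the 8 against 32.4% of all. For Pmp22 S55427_s_at the left tPA minus left gel difference was 0.04 on day 1 (95% interval -0.63 to 0.70) and 0.05 on day 4 (95% interval -0.61 to 0.71). For Mbp these intervals were wider, from -0.71 to 2.91 on day 1 and from -2.50 to 1.13 on day 4.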

How the data were processed

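Affymetrix rat arrays, whose probe sets each combine several short oligonucleotides, were hybridised with biotin-labelled RNA of carotid arteries, pooled from 3 vessels each per the labels. The authors deposited 1 linear intensity per probe set; the summary software is not given in the sources used here. Of 8799 probe sets, 59 controls were left out. Values were floored at 23.3 and log2-transformed, which understates changes of dim genes, and the 2913 probe sets with the lowest mean log2 value over all arrays were not tested. R 4.3.3 with limma 3.58.1 (lmFit, eBayes) fitted 11 group means on all 40 arrays, with Benjamini-Hochberg adjustment over 5827 probe sets and a threshold of 0.05. The fit was tested on simulated data.

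Symbols came from the platform annotation. The members and lists were chosen with earlier results of these data known. The naming rule took all member probe sets. It also took up to 3 genes a list with the smallest p in left gel minus sham on either day, up to 3 with the highest mean, and the 3 genes most like each member. Others were named after their values were seen. Genes with several probe sets are represented by that of the highest mean, except that Ngfr entered the correlations between pairs of members as X05137_at. The labels do not say whether pools were separate animals throughout, so p-values measure the spread between these pools. Alternatives varied the scaling, filter, floor, array weights, moderation, arrays used and replicate block. Same-numbered arrays deviated together (every correlation above 0.1) in 1 comparison, right gel minus sham on day 1 (0.117 to 0.284), so the block was not used in the main fit. The labels give no hybridisation batch.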

Additional observations from a re-analysis of the deposited data

Results flagged for a closer look

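In 27 groups of 4 to 6 arrays, each a member probe set in 1 group, the highest or lowest array was compared with the rest by Dixon's ratio, which flags about 1 in 20 groups by chance. On floored log2 values 3 of them were past the critical ratio, and 1 of the 3 was past it without the floor. That was Ngfr U25650_f_at, which read 1110.6 on sham day 1 replicate 4, against 709.3 to 725.4 on the others (ratio 0.95). The other two passed only through the floor. S100b rc_AI146214_at read 34 on the same array, against 17.1 to 23.1 on the others, which are all under the floor (ratio 0.562 without it). Scn7a rc_AA925248_at read 48.8 on sham day 4 replicate 1, against 5.5 to 29.0, with 4 arrays under the floor (ratio 0.238 without it). The Scn7a injury effect under gel differed between days by 9.64 log2 units (limma adjusted p = 0.0107).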

How the results depend on the processing

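No called member difference changed sign under the alternatives. In right gel minus sham on day 4 the calls of S100b, Scn7a, Pmp22 S55427_s_at and Ngfr X05137_at held under every alternative that tested them. S100b was tested in 12 of the 13 settings other than leaving out single arrays. The Scn7a change of the injury effect also held throughout. The call of Ngfr U25650_f_at was lost with no filter (limma adjusted p = 0.0528) and with sham day 1 pairs averaged (0.0518, chosen after seeing the data). It was also lost with the replicate block (-0.93, limma adjusted p = 0.136). Over the settings that keep every array of the groups compared, the count ran from 4 to 6 there and from 2 to 3 in left gel minus sham on day 4. Left gel minus right gel on day 4 had 0 calls. It gave 1 under quantile normalization, with the dimmer 50% left out and with only the groups compared. There was also 1 with trend and robust moderation, the replicate block and sham day 1 pairs averaged, and without right gel day 1 replicate 3. It gave 2 with a floor at the 40th percentile and without the 4 tPA arrays, and 3 with array weights. Array weights also gave 2 calls for left gel minus sham on day 1, 1 for left tPA minus left gel on day 4, 1 for left gel minus right gel on day 1, 4 for left gel day 4 minus day 1 and 2 for the change of the injury effect. With only the groups compared there were 0 calls for left tPA minus sham on day 4, 1 for left gel day 4 minus day 1 and 2 for the change of the injury effect; without the 4 tPA arrays, 1 for left gel day 4 minus day 1. The cause of these shifts was not tested. Leaving out single arrays gave 4 to 5 calls in right gel minus sham on day 4, 1 to 2 in left gel minus sham on day 4, 0 to 1 in left tPA minus sham on day 4 and in left gel minus right gel on day 4, and 0 to 2 in left tPA minus left gel on day 1. S100b and Scn7a were under the floor on 11 of 40 arrays each, which limits their lower values.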
